A study of Mus musculus with 83 samples.

Results

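Mitochondrial ribosomal protein genes, taken as every gene whose symbol starts with Mrpl or Mrps followed by a number, were 77 of the 23845 genes measured as mRNA in single mouse embryos. Of the 83 libraries in the series, 77 are single preimplantation embryos and are used here. The fathers of heat and control groups alike were 8 to 12 weeks old. Those of the heat groups spent 7 days in a warmed unit, at 35 °C during 8 h of each day and at 25 °C during the other 16 h. Those of the control groups spent the same time in the same kind of unit held at 21 °C. The groups are 21 morulae from heat-exposed sperm, 22 morulae from control sperm, 18 4-cell embryos from heat-exposed sperm and 16 4-cell embryos from control sperm. The design asks what a father's exposure does to the transcripts of the embryo. Strain, father, mother, litter and day of an embryo are not in the labels, so p-values reflect how single embryos vary and embryos of a group may be siblings. Each library is a whole embryo, so fewer cells of a type and less RNA per cell cannot be told apart.

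Mitochondria carry their own ribosomes, built from a large and a small subunit. The ribosomal RNAs come from mitochondrial DNA, while every protein is encoded in the nucleus, made in the cytosol and imported. These ribosomes make only the few hydrophobic subunits of the respiratory chain and ATP synthase that mitochondrial DNA encodes. Some of the proteins have counterparts in bacterial ribosomes, and others are particular to mitochondria. In the cleavage embryo the stock of mitochondria comes from the oocyte, and loss of single mitoribosomal proteins in mice (Mrpl3, Mrpl22, Mrpl44, Mrps18c and Mrps22 among them) is lethal to embryos.

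The members were broadly present at both stages. Values are TPM, a share of transcripts that allows for transcript length and adds up to the same total in every embryo. Of the 77 members, 71 were above 0 in every embryo (92.2%), against 2962 of all 23845 genes (12.4%). The remaining 6 (Mrpl1, Mrpl16, Mrps2, Mrps9, Mrps25 and Mrps27) were listed at 0 in 1 or 2 embryos, all of them 4-cell embryos. Since Polr2a and Tbp, which every cell uses, were also at 0 in 1 and 2 embryos, a 0 can be a failed estimate, and levels are given as lowest, median and highest.

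Levels spanned a 99.6-fold range of medians over the 77 embryos, around a central value of 173.6 TPM. Mrpl22, a protein of the tunnel through which the new chain leaves the ribosome, was highest with a median of 1236 TPM. It was followed by Mrps18b at 1032 TPM and by Mrpl12, the protein of the flexible stalk that also binds mitochondrial RNA polymerase, at 825 TPM. The small bacterial-type proteins Mrpl34 and Mrpl33 of the large subunit stood next, at 648 and 556 TPM. The lowest medians were those of Mrpl50 (12.4 TPM), Mrps27 (12.7 TPM), a protein with RNA-binding repeats, Mrps25 (13.7 TPM), Mrps2 (14.6 TPM) and Mrpl1 (19.2 TPM). In all, 8 members exceeded 500 TPM and 13 stayed under 50 TPM, and the 10 highest held 38.0% of the TPM of all members. Proteins that stand side by side in 1 particle were therefore encoded by mRNAs whose levels differed widely. The order of members by median was much alike across groups, with a Spearman coefficient over the 77 members of 0.99 between heat and control morulae, 0.98 between heat and control 4-cell embryos and 0.93 between control morulae and control 4-cell embryos.

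**Figure D1:**
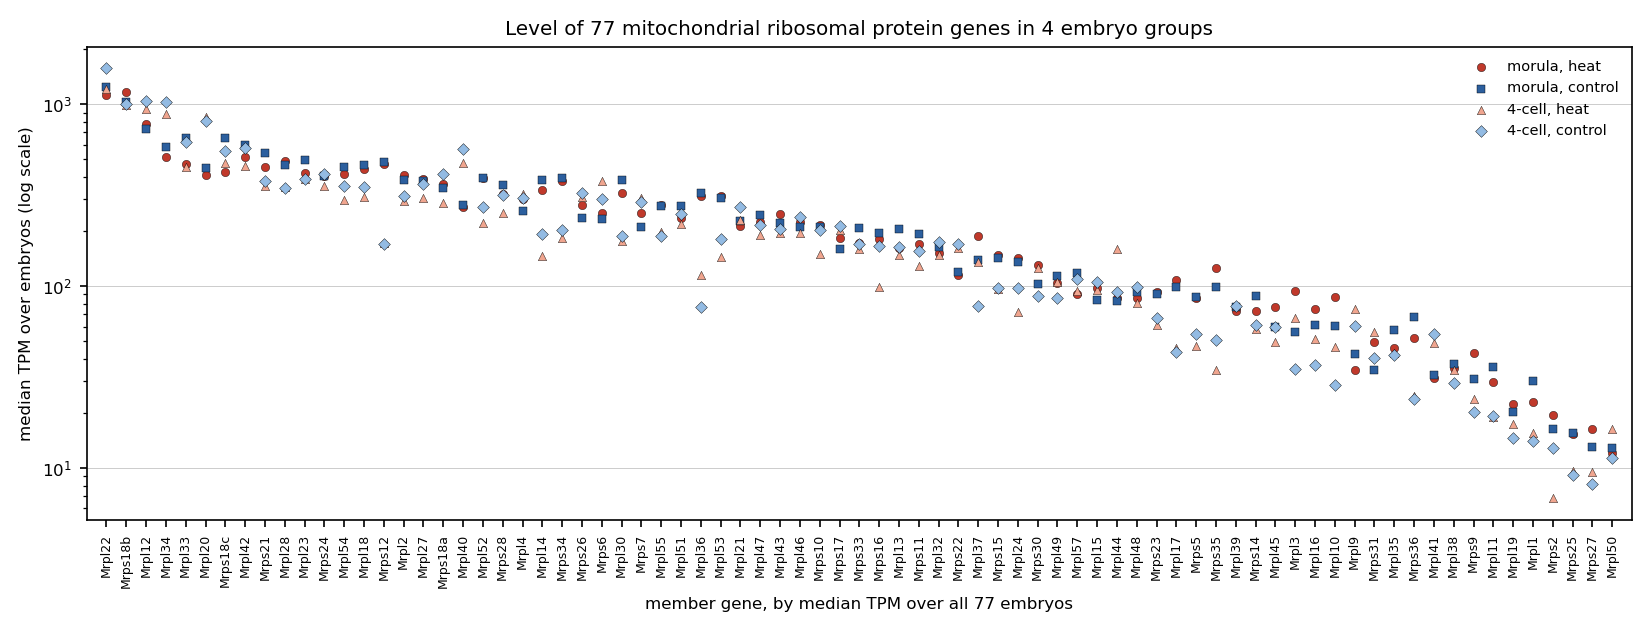
Median TPM (vertical axis, log scale) of each of the 77 members in morulae from heat-exposed sperm, morulae from control sperm, 4-cell embryos from heat-exposed sperm and 4-cell embryos from control sperm, ordered by the median over all 77 embryos. Medians run down to 12.4 TPM for Mrpl50, against 1236 TPM for Mrpl22. The 4 symbols lie apart for members that differ between stages, such as Mrpl36, and for some called in neither stage comparison. Among these is Mrpl3, with 93.6, 56.3, 67.0 and 35.0 TPM in the order of the groups above.

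By class, proteins of the large subunit with bacterial counterparts (30 members) had a median level of 234 TPM and those particular to mitochondria (20 members) 126 TPM. In the small subunit the corresponding values were 189 TPM (16 members) and 114 TPM (10 members). Mrps36, which is now known as a subunit of the alpha-ketoglutarate dehydrogenase complex and is in no class here, had 45.6 TPM. The 3 Mrps18 genes descend from 1 bacterial gene: Mrps18a sits in the large subunit, Mrps18b and Mrps18c in the small one. In the classes above, Mrps18c is counted as having a bacterial counterpart, and Mrps18a and Mrps18b as particular to mitochondria. They differed in level. Mrps18b had median TPM of 1171 in heat morulae, 1022 in control morulae, 991 in heat 4-cell embryos and 999 in control 4-cell embryos. Mrps18c had 423, 648, 474 and 555 TPM in the same order, and Mrps18a 364, 347, 285 and 413 TPM. Mrps18b was thus the highest of the 3 in every group.

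Summed over all members, the mRNAs took a share of the embryo's transcripts whose median was much alike in the 4 groups. The share was 1.15% at the lowest, 1.91% at the median and 2.31% at the highest in heat morulae, against 1.57%, 1.95% and 2.61% in control morulae. In heat 4-cell embryos it was 1.43%, 1.75% and 2.21%, against 1.62%, 1.85% and 2.27% in control 4-cell embryos. The 4 ranges overlapped. For comparison, the 83 cytosolic ribosomal protein genes had median shares of 24.1% in heat morulae, 25.2% in control morulae, 24.9% in heat 4-cell embryos and 26.6% in control 4-cell embryos, and 36 genes of respiratory complex I 1.57%, 1.88%, 1.19% and 1.35% in the same order. Members spread less between embryos than genes at large. Their median standard deviation of log2(TPM + 1) was 0.43 in heat morulae, 0.51 in control morulae, 0.63 in heat 4-cell embryos and 0.62 in control 4-cell embryos, against 0.83, 1.00, 1.08 and 1.05 for all genes that passed the filter. For the 39 members in the middle of the level range the corresponding values were 0.37, 0.47, 0.60 and 0.63, against 0.59, 0.68, 0.84 and 0.76 in other genes of the same levels.

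Median sums of outer-lineage, oocyte and pluripotency markers went with the stage labels. The summed TPM of the pluripotency markers Pou5f1, Nanog and Sox2 overlapped between the stages. It lay between 650 and 2332 in heat and between 175 and 1963 in control morulae, with medians of 1676 and 1361. In 4-cell embryos it lay between 94.6 and 1117 after paternal heat and between 124.7 and 1121 in controls, with medians of 481 and 429. The summed TPM of the outer-lineage markers Cdx2, Gata3, Krt8 and Krt18 lay between 57.7 and 2666 in morulae and between 0 and 41.1 in 4-cell embryos, with no overlap. Its median was 601 in heat morulae and 339 in control morulae. The summed TPM of 6 oocyte markers lay between 0 and 25.1 in morulae and between 16.9 and 194.3 in 4-cell embryos, with medians of 72.9 in heat 4-cell embryos and 45.4 in control 4-cell embryos. Zp3 had the highest medians there (63.3 TPM in heat and 34.1 TPM in control 4-cell embryos), followed by Gdf9 (8.52 and 7.62 TPM). Zp2, Bmp15 and Nlrp5 had medians of at most 0.75 TPM, and Zp1 had a median of 0 in every group. The 5 markers of cumulus and granulosa cells had a median of 0 in every group and a sum of at most 2.88 TPM in any embryo, and the 4 sperm markers also had a median of 0 in every group, with a sum of at most 27.6 TPM in heat and 15.1 TPM in control 4-cell embryos and 4.22 TPM in heat and 3.47 TPM in control morulae. The number of genes above 0, which stands in for the unknown depth, had a median of 11283 in heat morulae, 10774 in control morulae, 8996.5 in heat 4-cell embryos and 8259.5 in control 4-cell embryos, and 4 embryos had fewer than 7000. It thus moved with stage and, to a lesser degree, with paternal heat. The part of these cell mixtures and of the number of detected genes in the differences that follow was not tested, apart from fits with that number as a covariate.

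Between the 4-cell stage and the morula, members went both ways, more of them up than down, which also held for all genes tested. In control embryos, 23 of 77 (29.9%) were higher in morulae and 8 (10.4%) lower at an adjusted p under 0.05 (limma on log2(TPM + 1), Benjamini-Hochberg over 8148 genes), while 27.2% of all genes tested were higher and 18.9% lower. The share of members called, 40.3%, was near the 46.1% of all genes. Their median log2 fold change was 0.22, against 0.18 for all genes, with 54 of 77 above 0. At a change of at least 2-fold, 8 members were higher and 0 lower, where 20.6% of all genes were higher and 11.4% lower.

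Embryos of heat-exposed fathers, none of which enters the control comparison, gave 29 members (37.7%) higher and 6 (7.79%) lower in morulae, 45.5% in all. Of 8430 genes, 26.1% were higher and 24.7% lower, 50.8% in all. With at least a 2-fold change, 7 members were higher and 0 lower, beside 18.6% and 14.8% of all genes. The median of members was 0.29, against 0.02 for all genes. Of the members, 18 were higher in both comparisons, which is 62.1% of the 29 in heat embryos and 78.3% of the 23 in control embryos. A further 5 were lower in both, which is 83.3% of the 6 in heat embryos and 62.5% of the 8 in control embryos. In all, 65 of 77 members had the same sign, and 0 were called in opposite directions. The matching shares of all genes are not given here, so these counts are not read as particular to members. The fold changes of members in heat embryos and control embryos had a Pearson coefficient of 0.86 and a Spearman coefficient of 0.86 across 77 members, beside 0.93 and 0.91 across 7889 genes. These are coefficients across genes, which share the embryos and are not independent replicates. With each embryo centred on its median gene, 26 members were higher and 4 lower in heat embryos (30.2% and 22.6% of all genes), and 14 higher and 8 lower in control embryos (25.7% and 22.9% of all genes). With detected genes as a covariate, 21 were higher and 17 lower in heat embryos (11.2% and 35.0% of all genes), and 27 higher and 19 lower in control embryos (14.1% and 36.4% of all genes). Their number itself differs between the stages.

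**Figure D2:**
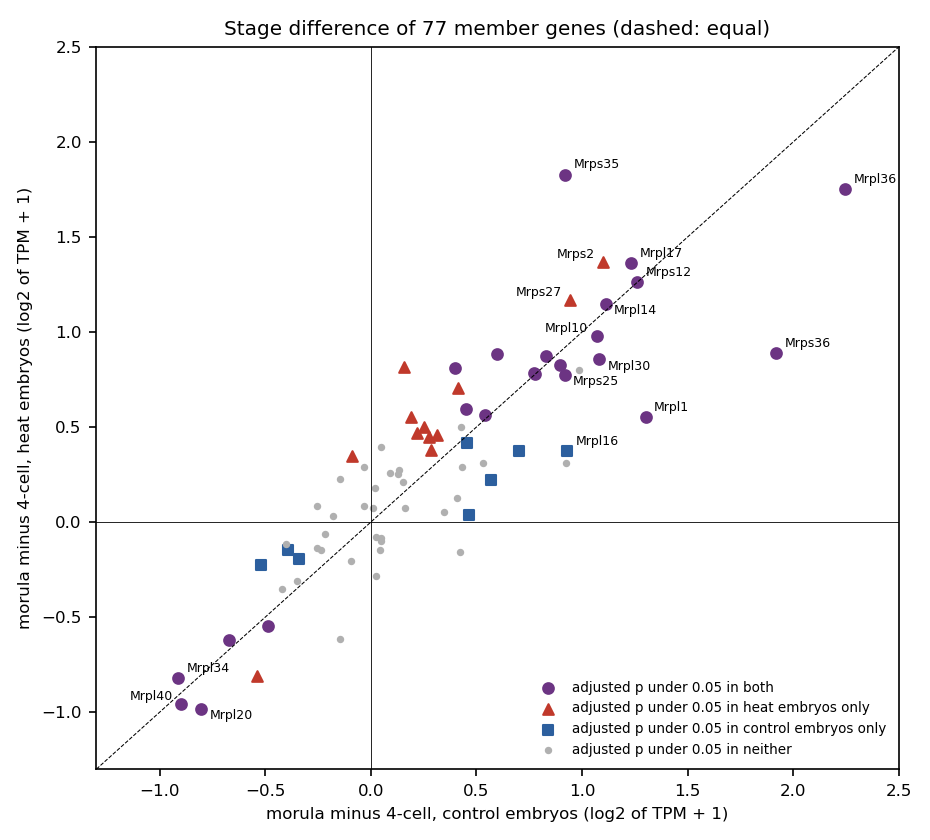
Log2 fold change of log2(TPM + 1), morula minus 4-cell, in embryos of heat-exposed fathers (vertical axis) and of control fathers (horizontal axis), 1 symbol for each of 77 members. Filled circles mark the 18 members higher and 5 lower at an adjusted p under 0.05 in both comparisons, and most symbols lie near the dashed line of equal change.

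The largest rise in control embryos was that of Mrpl36, the mitochondrial form of the smallest protein of the bacterial large subunit. It had 100.7, 312.4 and 516.2 TPM at the lowest, median and highest in heat morulae and 218, 325 and 608 TPM in control morulae. In 4-cell embryos it had 31.1, 115.3 and 220.4 TPM after paternal heat and 20.1, 76.6 and 161.3 TPM in controls. Every control morula was thus above every control 4-cell embryo, and 20 of 21 heat morulae were above the median of heat 4-cell embryos. The log2 fold change was 1.75 ± 0.22 (SE; adjusted p = 1.1e-08, limma) in heat embryos and 2.25 ± 0.20 (adjusted p = 5.4e-12) in control embryos. Mrpl36 was the single member whose control groups did not overlap, which held for 1.40% of all genes, and in heat embryos the groups overlapped for all 77 members, where 1.25% of all genes were without overlap.

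Mrps12, a protein of the centre where codons are read, was at 138, 470 and 719 TPM in heat morulae, against 79.9, 173.5 and 443.6 TPM in heat 4-cell embryos. In control morulae it was at 260, 484 and 832 TPM, against 95.9, 171.5 and 649.2 TPM in control 4-cell embryos. The ranges overlapped, in heat embryos down to a morula below the 4-cell median, and 20 of 21 heat morulae and 22 of 22 control morulae exceeded the 4-cell median of their group. Mrps12 rose by 1.26 ± 0.18 in log2 in both comparisons (adjusted p = 2.4e-07 in heat and 2.1e-07 in control embryos).

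Mrpl17 and Mrpl14, proteins of the large subunit with bacterial counterparts, rose in the same way. Mrpl17 had medians of 107.5 TPM in heat morulae, against 45.7 TPM in heat 4-cell embryos, and 99.2 TPM in control morulae, against 43.5 TPM in control 4-cell embryos. Its log2 fold change was 1.36 ± 0.20 in heat and 1.23 ± 0.15 in control embryos. Mrpl14 had medians of 338 and 146 TPM in heat morulae and heat 4-cell embryos, and 383 and 192 TPM in control morulae and control 4-cell embryos, with log2 fold changes of 1.15 ± 0.15 and 1.11 ± 0.25. For both genes every morula lay above the 4-cell median of its paternal group. Mrpl14 overlaps Tmem63b in the annotation, and the library kit does not mark strand, so reads of the pair cannot be told apart.

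Some rises were less even between paternal groups. Mrps36 had medians of 52.0 and 24.9 TPM in heat morulae and heat 4-cell embryos (0.89 ± 0.28, adjusted p = 0.00695) and 67.3 and 24.0 TPM in control morulae and control 4-cell embryos (1.92 ± 0.37, adjusted p = 5.3e-05). Mrpl1, a protein of the mobile stalk near the exit site for transfer RNA in bacteria, rose by 0.55 ± 0.22 in heat and by 1.30 ± 0.36 in control embryos. Mrps35, named after its values were seen, rose by 1.83 in heat embryos, more than any other member there, and by 0.92 in control embryos. The test of the difference itself, given with the paternal comparisons, called 0 members.

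Of the members that fell, the 3 with the largest falls in control embryos were of the large subunit. Mrpl34 had 197, 512 and 878 TPM in heat morulae, against 523, 884 and 1827 TPM in heat 4-cell embryos, and 214, 579 and 874 TPM in control morulae, against 419, 1027 and 2132 TPM in control 4-cell embryos. Mrpl40 was at medians of 272 and 473 TPM in heat morulae and heat 4-cell embryos and 278 and 570.5 TPM in control morulae and control 4-cell embryos. Mrpl20, which in bacteria binds early as the large subunit is built, was at 410 and 854 TPM in heat morulae and heat 4-cell embryos and 448 and 806 TPM in control morulae and control 4-cell embryos. All 21 heat and all 22 control morulae lay below the 4-cell median of their group for each of these 3 genes. The log2 fold changes in heat and control embryos were -0.82 ± 0.15 and -0.91 ± 0.19 for Mrpl34, -0.96 ± 0.13 and -0.90 ± 0.13 for Mrpl40, and -0.98 ± 0.12 and -0.80 ± 0.14 for Mrpl20. These 3 were also the members called lower in control embryos under every one of 11 settings. Smaller falls were seen for Mrpl41 (-0.62 and -0.67) and for Mrps22, a small-subunit protein mutated in human mitochondrial disease (-0.55 and -0.49). Mrpl12 fell in control embryos (-0.52 ± 0.12, adjusted p = 0.00044) and had -0.23 ± 0.12 (adjusted p = 0.13) in heat embryos.

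**Figure D3:**
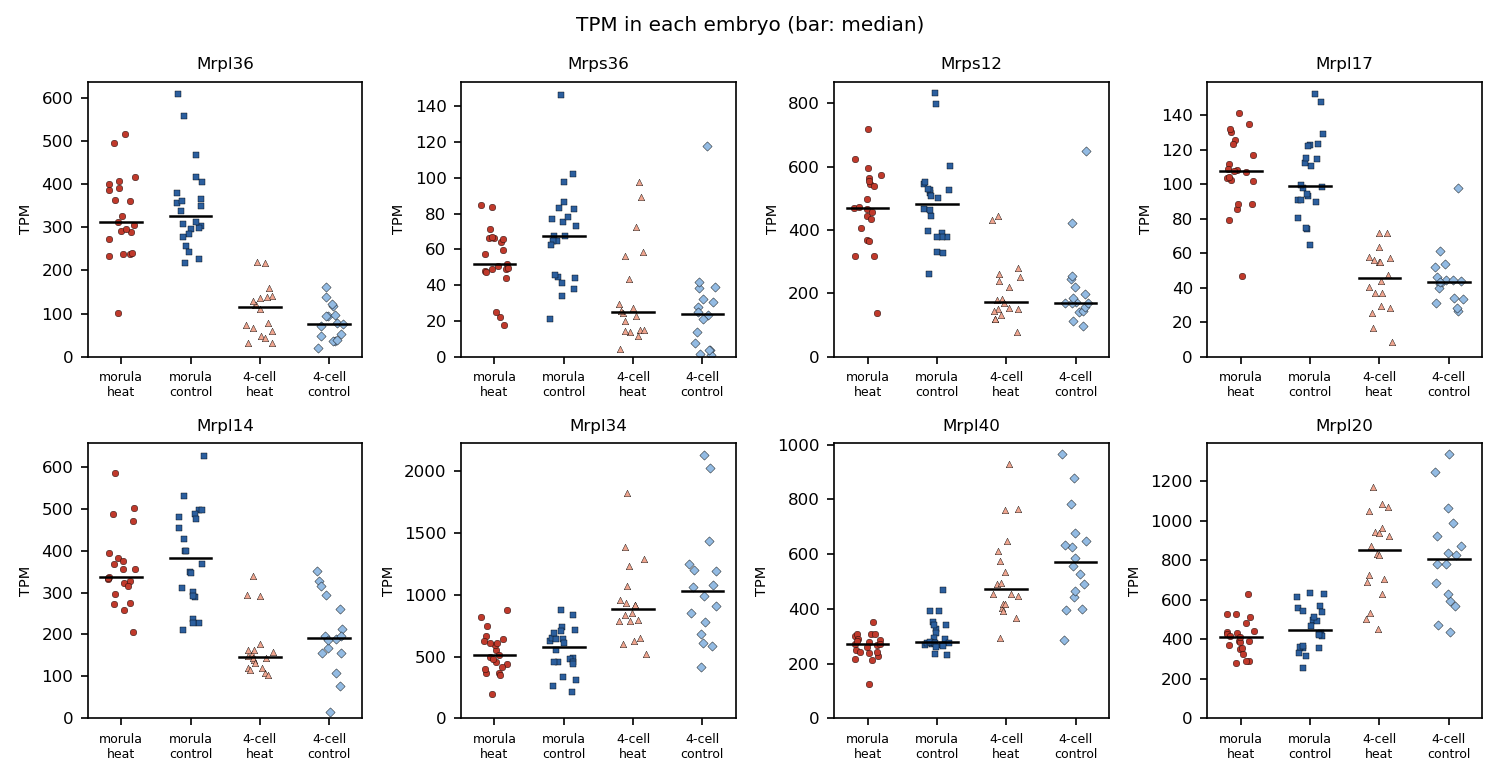
TPM in each embryo (vertical axis, linear from 0) of 5 members that rose and 3 that fell from the 4-cell stage, in the 4 groups, with the group median as a bar. Control morulae for Mrpl36 start at 218 TPM, above the highest control 4-cell embryo at 161.3 TPM, and for Mrpl34, Mrpl40 and Mrpl20 every morula lies below the 4-cell median of its paternal group.

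Rises were spread over the classes. Of the 30 large-subunit proteins with bacterial counterparts, 12 rose and 3 fell in heat embryos and 12 rose and 3 fell in control embryos. Of the 20 large-subunit proteins particular to mitochondria, 4 rose and 2 fell in heat and 3 rose and 2 fell in control embryos. Of the 16 small-subunit proteins with bacterial counterparts, 6 rose and 0 fell in heat and 4 rose and 1 fell in control embryos. Of the 10 particular to mitochondria in the small subunit, 6 rose and 1 fell in heat and 3 rose and 2 fell in control embryos. Over all genes tested, 26.1% rose and 24.7% fell in heat embryos, and 27.2% rose and 18.9% fell in control embryos. The differences between classes were not tested.

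Genes that work with the mitoribosome also went both ways between the stages in control embryos. Among 6 measured mitoribosomal proteins under other symbols, 2 rose and 1 fell. Dap3, a GTP-binding protein of the small subunit, rose by 1.50 ± 0.32 and Chchd1 by 0.73 ± 0.18, while Gadd45gip1, of the large subunit, had -1.19 ± 0.17. Of 20 tested assembly genes 2 rose and 2 fell: the RNA-binding Fastkd2 had 1.30 ± 0.39, Malsu1, which binds large subunits late in assembly, 0.63 ± 0.18, the helicase Dhx30 -1.23 ± 0.31 and the GTPase Noa1 -1.08 ± 0.41. Of 15 tested translation factors 2 rose, the release factor Mtrf1l (1.30 ± 0.36) and Lrpprc (0.74 ± 0.29), which stabilises mitochondrial mRNA. Of 8 tested genes of mitochondrial transcription and DNA 3 were higher and 2 lower at the same threshold: Tfam, which packs the DNA, had 1.29 ± 0.29, the polymerase Polg 0.81 ± 0.22, the elongation factor Tefm -1.69 ± 0.41 and the initiation factor Tfb2m -1.15 ± 0.46. Of complex I genes 17 of 36 rose and 1 fell, with a median of 0.50, and of cytosolic ribosomal protein genes 3 of 83 rose and 14 fell, with a median of -0.09.

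In heat embryos the 6 under other symbols again gave 2 rises and 1 fall, with Dap3 at 1.87 ± 0.28, Chchd1 at 0.69 ± 0.16 and Gadd45gip1 at -0.73 ± 0.15. The genes named for heat embryos are those called there and those named above for control embryos, a choice made after their values were seen. Of 20 tested assembly genes 3 rose and 3 fell. The GTPase Mtg1 rose by 1.65 ± 0.35, Malsu1 by 0.70 ± 0.15 and Mpv17l2 by 0.64 ± 0.25, the GTPase Gtpbp10 had -1.13 ± 0.33, Noa1 -0.88 ± 0.36 and Dhx30 -0.84 ± 0.27, and Fastkd2 had 0.16 ± 0.32 (adjusted p = 0.70, limma). Of 14 tested translation factors 4 rose: Mtfmt, which formylates the initiator transfer RNA, by 1.28 ± 0.38, Lrpprc by 0.89 ± 0.33, the initiation factor Mtif2 by 0.63 ± 0.25 and Slirp, the partner of Lrpprc on mitochondrial mRNA, by 0.42 ± 0.18, while Mtrf1l had 0.78 ± 0.35 (adjusted p = 0.055). Of 8 tested genes of transcription and DNA 2 rose, Polg by 0.72 ± 0.24 and Tfam by 0.64 ± 0.27, and 3 fell: Tefm had -1.93 ± 0.42, Tfb2m -1.56 ± 0.42 and the RNA polymerase Polrmt -0.91 ± 0.33. Of complex I genes 20 of 36 rose and 2 fell, with a median of 0.56, and of cytosolic ribosomal protein genes 11 of 83 rose and 7 fell, with a median of 0.06.

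The promoters of the members that moved most between the stages show what kind of start these genes have. RefSeq promoters of assembly GRCm38.p6, from 250 bases before to 50 after the start, matched 68 members by symbol. The 150 bases before the start are shown for the 3 largest rises and 2 largest falls in control embryos. Capitals mark matches, on either strand, to any of 8 motifs, whose letters are given beside their counts further on. Mrpl36 lies at chr13:73330859-73331008 on the + strand, inside the annotated span of its gene, Mrps36 at chr13:100744660-100744809 on the - strand, Mrpl1 at chr5:96209965-96210114 on the + strand, also inside its gene's span, Mrpl34 at chr8:71464776-71464925 on the + strand and Mrpl40 at chr16:18876638-18876787 on the - strand.
Mrpl36: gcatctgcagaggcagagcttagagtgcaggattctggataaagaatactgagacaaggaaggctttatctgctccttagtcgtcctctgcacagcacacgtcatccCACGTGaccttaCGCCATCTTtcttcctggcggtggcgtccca
Mrps36: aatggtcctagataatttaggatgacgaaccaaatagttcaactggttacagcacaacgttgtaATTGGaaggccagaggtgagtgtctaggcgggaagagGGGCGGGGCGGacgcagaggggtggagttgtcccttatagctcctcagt
Mrpl1: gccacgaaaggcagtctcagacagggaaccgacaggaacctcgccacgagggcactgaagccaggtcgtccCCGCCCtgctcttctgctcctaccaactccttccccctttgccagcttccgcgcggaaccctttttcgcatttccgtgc
Mrpl34: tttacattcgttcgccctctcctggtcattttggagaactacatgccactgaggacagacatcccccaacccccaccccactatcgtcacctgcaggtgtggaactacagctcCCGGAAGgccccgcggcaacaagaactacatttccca
Mrpl40: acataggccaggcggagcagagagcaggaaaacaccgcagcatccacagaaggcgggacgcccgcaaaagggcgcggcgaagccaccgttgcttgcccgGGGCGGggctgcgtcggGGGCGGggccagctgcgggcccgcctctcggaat
The window of Mrpl36 holds an E-box and a YY1 match close to the start, Mrps36 an NF-Y and a pair of SP1 matches, Mrpl1 1 SP1 match, Mrpl34 1 ETS match and Mrpl40 a pair of SP1 matches, and none of the 5 holds a TATA box in the bases shown.

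Over the whole windows, the ETS motif CCGGAAG, bound by factors such as GABPA, was in 24 of 68 members (35.3%), against 21.3% of 6786 promoters of expressed genes (mean TPM of at least 1) and 9.12% of all 27025 promoters. The YY1 motif AAGATGGCG was in 8 members (11.8%), against 3.85% of expressed and 1.49% of all promoters. The NRF1 motif GCATGCGC was also in 8 members (11.8%), against 6.19% of expressed and 2.80% of all promoters, and its longer form, with GC added at the 5′ end, in 3 of them (4.41%), against 2.15% and 0.977%. The SP1 motif GGGCGG was in 34 members (50%), against 64.5% of expressed and 35.9% of all promoters. The NF-Y motif CCAAT was in 27 members (39.7%), against 40.5% and 37.9%. The E-box CACGTG was in 5 members (7.35%), against 10.7% and 7.24%, and the TATA box, spelled TATAAA, in 4 (5.88%), against 6.85% and 14.2%. Both strands were searched, and apart from the 2 forms of the NRF1 motif no motif contains another. The ETS motif was in 6 of the 21 members with a window that rose in control embryos, 3 of the 8 that fell and 15 of the 39 that passed in neither direction. For YY1 the counts were 1, 0 and 7. A match is a run of letters and is given here as a description.

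Many members share a start region with another gene. The nearest start on the opposite strand lay within 1000 bases upstream (or within 100 bases of overlap) for 26 of 68 members (38.2%), against 21.6% of expressed genes and 14.0% of 16847 genes of the file with a promoter entry. Mrpl46 of the large and Mrps11 of the small subunit face each other on chromosome 7, with starts 42 bases apart. Mrpl46 had -0.15 and Mrps11 0.41 in log2 between control morulae and control 4-cell embryos, and neither passed the test. Mrps12 starts 147 bases from Sars2, the gene for a mitochondrial transfer RNA synthetase, and Mrpl40 starts 113 bases from Hira, a histone chaperone. Members lie on 17 chromosomes, with 10 on chromosome 11. Of the 77, 25 overlap another RefSeq gene, and 6 have pseudogenes named for them (Mrps36 has 3), whose reads may be split or shared by the counting rule, which no source used here gives.

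Paternal heat changed no member past the threshold at either stage. At the 4-cell stage 0 of 77 members were called in limma with Benjamini-Hochberg adjustment, as were 0% of 7322 genes. At an unadjusted p under 0.05, 3 members were higher and 4 lower in heat embryos, which is 3.90% and 5.19%, beside 9.98% higher and 1.52% lower among all genes. The median log2 difference of members was -0.08 with 30 of 77 above 0, against 0.26 for all genes, -0.10 for cytosolic ribosomal protein genes and -0.20 for complex I genes. Centring each embryo on its median gene moved the median of all genes to -0.08 and that of members to -0.43, with 12 of 77 above 0, and at an unadjusted p under 0.05 it gave 1 member higher and 26 lower, beside 2.32% and 7.50% of all genes. Relative to all genes, members were at -0.35, a gap that centring leaves unchanged, since it moves all genes of an embryo alike. With detected genes as a covariate this gap was -0.17. The standard error of a member's difference had a median of 0.23. The oocyte marker sum, in which Zp3 had the highest median, had a median of 72.9 TPM in heat and 45.4 TPM in control 4-cell embryos. It ranged between 21.6 and 172.7 TPM in heat and between 16.9 and 194.3 TPM in control embryos, and its part in these differences was not tested.

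The 3 members with higher values at the 4-cell stage were Mrpl16, Mrpl3 and Mrps30. Mrpl16 had 11.9, 51.3 and 253.8 TPM in heat 4-cell embryos and 0, 36.9 and 77.2 TPM in control 4-cell embryos, a difference of 0.96 ± 0.42 (unadjusted p = 0.027, adjusted p = 0.39, limma). Mrpl3, which lies near the centre where peptide bonds form, had 1.17, 66.99 and 161.02 TPM in heat and 0.69, 35.0 and 102.0 TPM in control embryos, a difference of 1.34 ± 0.61 (adjusted p = 0.40). Mrps30, a large-subunit protein in spite of its name, had 18.9, 125.8 and 422.0 TPM in heat and 12.9, 88.6 and 203.1 TPM in control embryos, a difference of 0.74 ± 0.36 (adjusted p = 0.43). For each of the 3 genes 14 of 18 heat embryos were above the control median. The groups overlapped, with the highest heat embryo above the highest control embryo for each gene.

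The 4 with lower values were Mrps16, Mrpl33, Mrpl22 and Mrps28. Mrps16 had 30.5, 99.5 and 294.3 TPM in heat 4-cell embryos, against 97.2, 166.1 and 363.0 TPM in control 4-cell embryos, with 4 of 18 heat embryos above the control median. Its difference was -0.82 ± 0.27 (unadjusted p = 0.0043, adjusted p = 0.38, limma), the smallest p among the members. Mrpl33 had 187, 451 and 909 TPM in heat and 344, 623 and 1061 TPM in control 4-cell embryos (-0.49 ± 0.19, adjusted p = 0.39). Mrpl22 had 624, 1211 and 2010 TPM in heat and 999, 1572 and 1943 TPM in control 4-cell embryos (-0.33 ± 0.15, adjusted p = 0.40), and Mrps28 253 and 319 TPM at the medians of heat and control 4-cell embryos (-0.37 ± 0.17, adjusted p = 0.40). None of the 7 genes separated the groups, and 0% of all genes did.

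In morulae 0 of 77 members were called, as were 0% of 7897 genes. At an unadjusted p under 0.05, 4 were higher and 8 lower in heat morulae, or 5.19% and 10.4%, beside 4.13% and 1.92% of all genes. The median of members was -0.01 with 36 of 77 above 0, against 0.13 for all genes, 0.07 for cytosolic ribosomal protein genes and -0.17 for complex I genes. Relative to all genes the median of members was -0.14, and 0.02 with detected genes as a covariate. The outer-lineage markers had a summed TPM between 94.6 and 2666 in heat and between 57.7 and 2044 in control morulae, with median TPM of 48.2 and 18.1 for Cdx2, 59.7 and 49.6 for Gata3, 178 and 90.7 for Krt8 and 307 and 186 for Krt18 in heat and control morulae, and their part in these differences was not tested. Mrps18b had 701, 1171 and 1555 TPM in heat and 350, 1022 and 1449 TPM in control morulae, a difference of 0.34 ± 0.14 (adjusted p = 0.78, limma). Mrpl16 (0.40 ± 0.18), Mrps26 (0.26 ± 0.12) and Mrps23 (0.28 ± 0.14) were the others on the higher side. On the lower side were Mrpl33, with 264, 472 and 931 TPM in heat and 284, 650 and 1260 TPM in control morulae (-0.42 ± 0.16, adjusted p = 0.77), Mrps18c (-0.39 ± 0.18), Mrps14 and Mrps33 (both -0.34), Mrps21 (-0.31), Mrpl13 (-0.28), Mrpl22 (-0.23) and Mrpl40 (-0.21). Heat and control morulae overlapped for each of the 77 members, and 0% of all genes were without overlap.

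Mrpl33 and Mrpl22 were on the lower side at both stages, and Mrpl16 on the higher side at both, in embryos that the stages do not share. Over all members, the paternal differences in morulae and 4-cell embryos had the same sign for 45 of 77 (58.4%), beside 67.7% of 6530 genes, with a Pearson coefficient of 0.47 and a Spearman coefficient of 0.39 across members and 0.28 and 0.30 across genes. Heat embryos had a higher median number of detected genes than control embryos at both stages, and the points share those embryos. Mrpl18, whose mRNA in heat-shocked human cells also yields a protein that serves on cytosolic ribosomes, had -0.01 ± 0.11 in morulae and -0.15 ± 0.16 in 4-cell embryos.

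Whether the paternal difference itself changed between the stages was tested over all 77 embryos, and 0 of 77 members passed, as did 0% of 8689 genes. At an unadjusted p under 0.05, heat minus control was further to the positive side in morulae than at the 4-cell stage for 3 members and further to the negative side for 1, beside 1.31% and 3.96% of all genes. The 4 smallest p-values were those of Mrps16 (0.66 ± 0.29), Mrps36 (-1.03 ± 0.47), Mrpl46 (0.38 ± 0.19) and Mrps18b (0.44 ± 0.22), with adjusted p of 0.93 or 0.94 (limma). The difference itself was -0.16 in morulae and -0.82 at the 4-cell stage for Mrps16, -0.29 and 0.74 for Mrps36, 0.11 and -0.27 for Mrpl46, and 0.34 and -0.09 for Mrps18b. Genes that work with the mitoribosome also gave 0 calls for paternal heat. At an unadjusted p under 0.05 at the 4-cell stage, where 9.98% of all genes were higher and 1.52% lower, 1 of 19 tested assembly genes was higher, 2 of 14 translation factors were higher and 1 lower, 1 of 7 genes of transcription and DNA was higher, and 0 of 6 mitoribosomal proteins under other symbols passed. In morulae, where 4.13% were higher and 1.92% lower, 2 of 20 assembly genes were higher, 1 of 15 translation factors lower, 0 of 8 genes of transcription and DNA passed, and Gadd45gip1 was higher among the 6 under other symbols. Their smallest unadjusted p at the 4-cell stage was that of Slirp, with -0.73 ± 0.21 in 4-cell embryos (adjusted p = 0.38) and -0.51 ± 0.18 in morulae (adjusted p = 0.77).

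**Figure D4:**
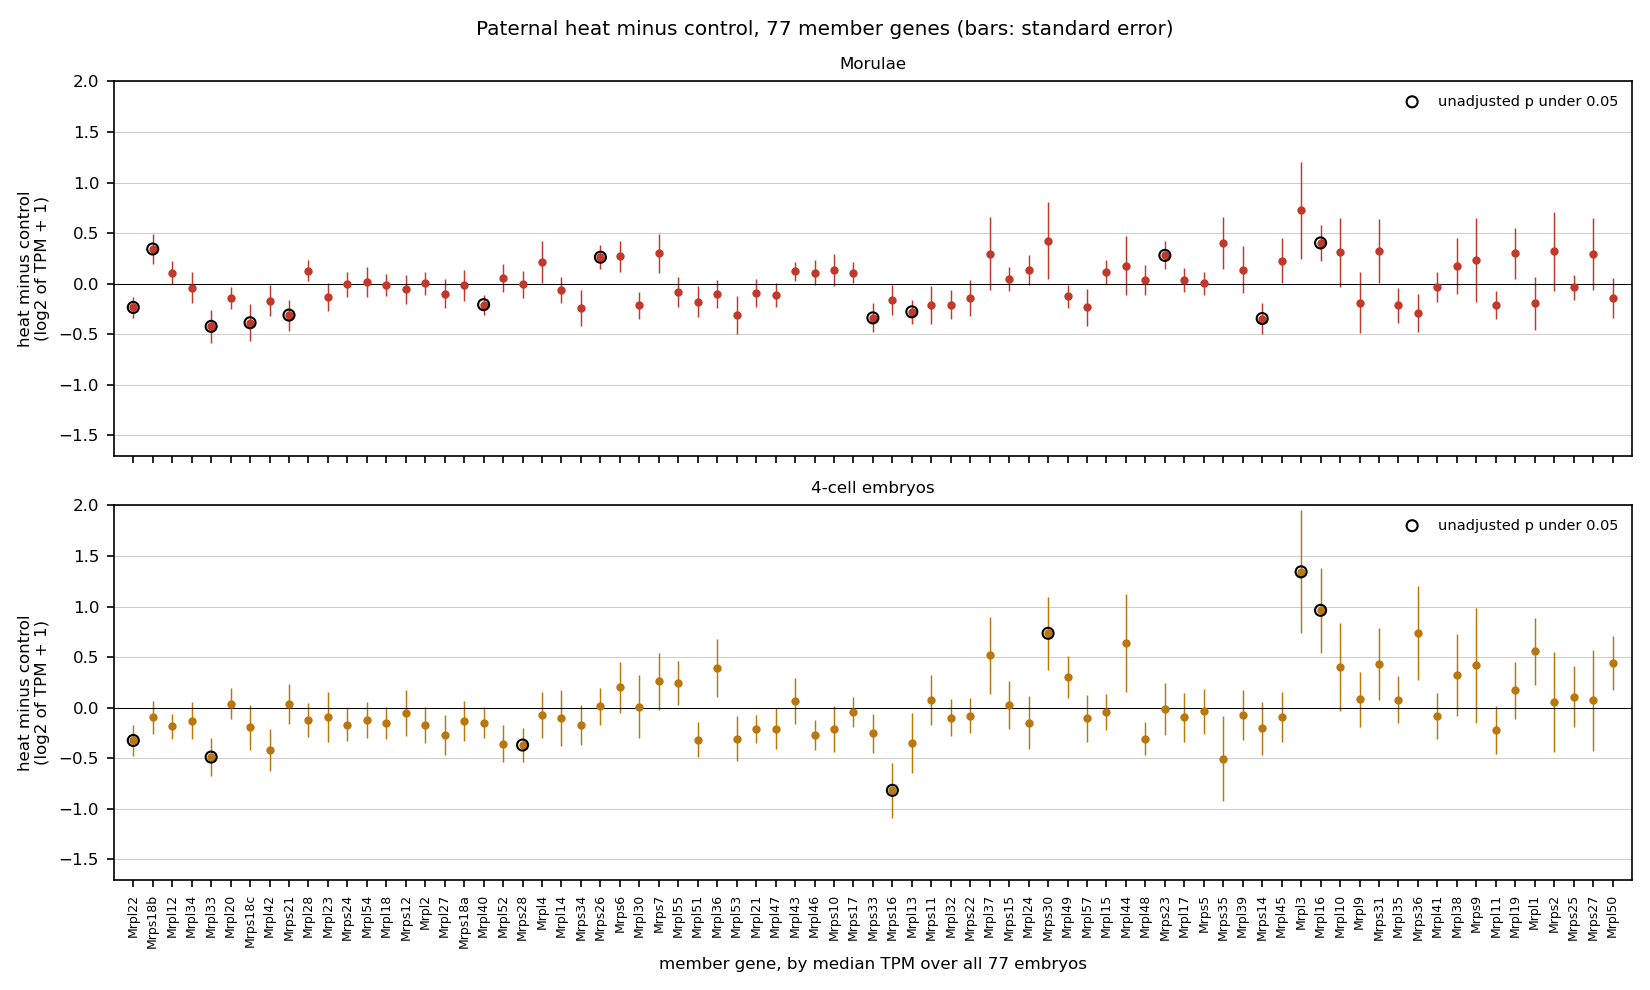
Paternal heat minus control, as the difference in log2(TPM + 1) with its standard error (vertical axis), for the 77 members ordered by level, in morulae (top) and 4-cell embryos (bottom), with a ring around members at an unadjusted p under 0.05. There are 12 rings in morulae and 7 in 4-cell embryos, differences lie between -0.42 and 0.73 in morulae and between -0.82 and 1.34 in 4-cell embryos, and 0 members passed the adjusted threshold.

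Members split by how they went with the number of genes detected in an embryo. In a fit over all 77 embryos with the 4 groups as terms, chosen after the data were seen, 28 members increased with the number of detected genes and 21 decreased at an adjusted p under 0.05 (limma, 8689 genes). Among all genes 60.9% increased and 5.08% decreased, and the median slope was 0.01 per 1000 detected genes for members, against 0.27 for all genes. In morulae alone 25 members increased and 16 decreased, beside 59.4% and 5.14% of 7897 genes. In 4-cell embryos alone 19 increased and 12 decreased, beside 37.8% and 3.55% of 7322 genes. Centred on the median gene of each embryo, 9 increased and 57 decreased, beside 18.4% and 35.5% of all genes, and the median slope was -0.36 for members and -0.10 for all genes.

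The steepest increase was that of Mrpl3, at 1.23 ± 0.11 in log2 per 1000 detected genes (adjusted p = 1.6e-14). It was followed by Mrps9 (0.83), Mrps30 (0.81), Mrpl10 (0.79), Mrps2 (0.79) and Mrpl44, a protein with the fold of RNase III (0.78). Mrpl37 had 0.78 ± 0.09. Mrpl3 ranged between 0.83 and 135.04 TPM within control morulae alone, and between 0.69 and 102.0 TPM within control 4-cell embryos. The steepest decreases were those of Mrpl33 (-0.31 ± 0.04), Mrps21 (-0.29 ± 0.05), Mrpl57 (-0.29 ± 0.06), Mrps18c (-0.26 ± 0.06), Mrps33 (-0.24 ± 0.05) and Mrpl51 (-0.22 ± 0.05). As background, Mrpl33, Mrps21, Mrpl57, Mrps33 and Mrpl51 encode some of the smallest mitoribosomal proteins, and Mrpl3, Mrps9, Mrps30 and Mrpl37 are among the larger ones. The sizes of the others named, Mrps18c, Mrps2, Mrpl10 and Mrpl44, are not described here. Mrpl36, which is also small, had a slope of 0.10 ± 0.07 (adjusted p = 0.17, limma). Protein and transcript lengths were not analysed, and whether they go with the slope was not tested.

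Of the members with higher values after paternal heat at the 4-cell stage, Mrpl3, Mrps30 and Mrpl16 (0.31 ± 0.09, but -0.066 with each embryo centred on its median gene) all increased with detected genes. Of those with lower values, Mrpl33, Mrps28 (-0.18 ± 0.04) and Mrpl22 (-0.15 ± 0.04) decreased, and Mrps16 had -0.13 ± 0.06 (adjusted p = 0.065). With detected genes as a covariate, the 4-cell difference was 0.55 for Mrpl3, 0.33 for Mrps30, 0.75 for Mrpl16, -0.75 for Mrps16, -0.31 for Mrpl33, -0.22 for Mrpl22 and -0.30 for Mrps28. In morulae the same fit gave 0.25 for Mrpl16, -0.23 for Mrpl33 and -0.16 for Mrpl22. The part of the number of detected genes in the stage differences cannot be told apart from the stage.

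**Figure D5:**
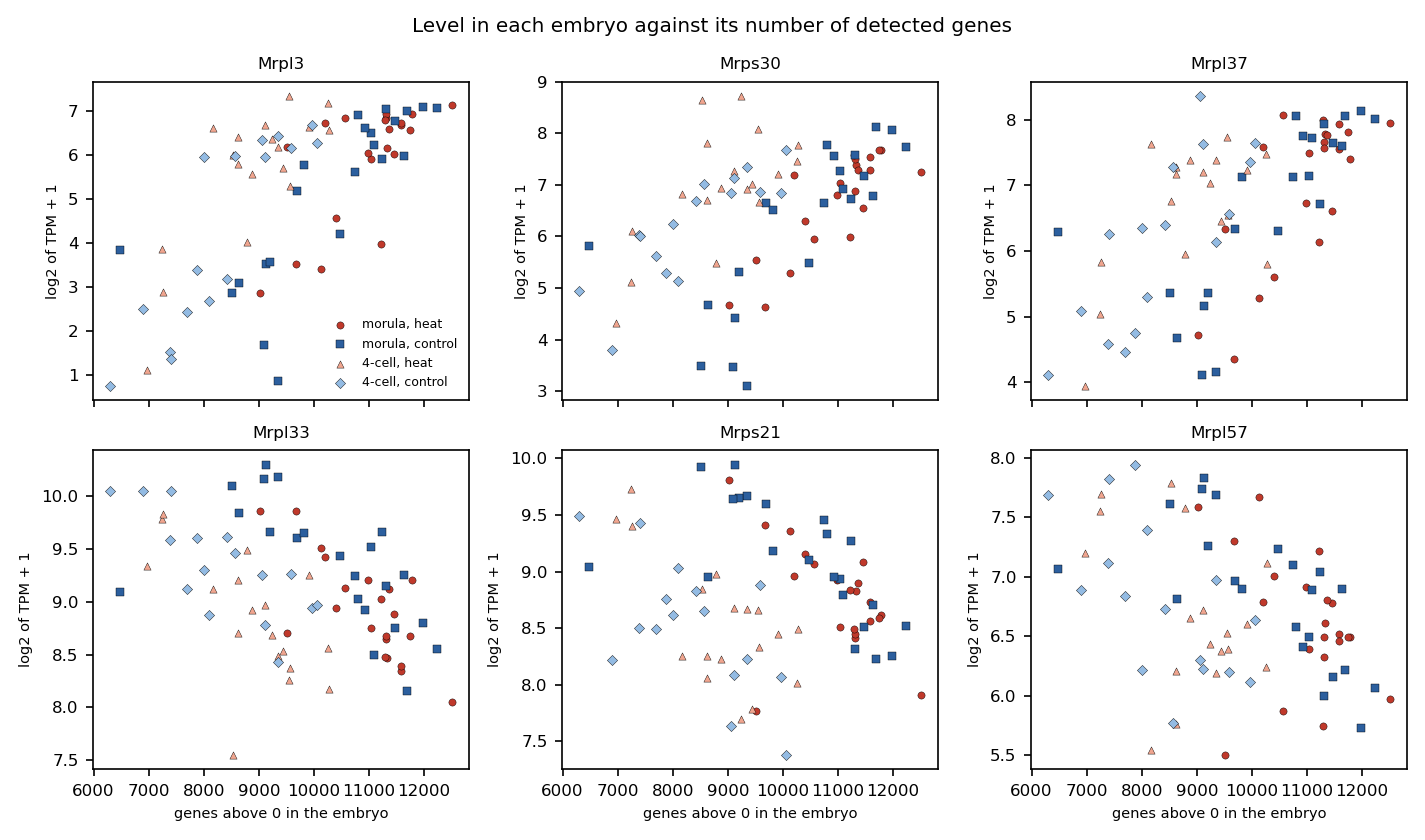
Level of 6 members in each of 77 embryos as log2(TPM + 1) (vertical axis), against the number of genes above 0 in that embryo (horizontal axis), with symbols for the 4 groups. Mrpl3, Mrps30 and Mrpl37 (top) increased with the number of detected genes and Mrpl33, Mrps21 and Mrpl57 (bottom) decreased, with slopes between -0.31 for Mrpl33 and 1.23 for Mrpl3 per 1000 genes.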

How the data were processed

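Polyadenylated RNA was sequenced from single embryos with the Nextera XT kit, which does not mark strand, per the labels' protocols. The authors deposited TPM for 23845 genes. The submitters' processing notes name RSEM, Bowtie2, Trimmomatic and the mouse build mm10, without version or role. TPM keeps no depth, so the reads behind a value are unknown. The sperm libraries of the series were not used here.

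A gene entered a fit if 50% or more of the embryos in any group of that fit had a TPM of 1 or more. The test was limma 3.58.1 (R 4.3.3), two-sided, with a mean-variance trend, on log2(TPM + 1). A call is a Benjamini-Hochberg adjusted p under 0.05 over all genes tested. All 77 members passed the filter in each of the 5 comparisons. Log2 fold changes refer to log2(TPM + 1), a scale that understates the change of low genes. A fit of levels on detected genes was added after the data were seen. The main fit of each comparison and of the slope was tested on simulated data, with values drawn for each gene on its own. The alternative settings were not tested in this way. Members, gene lists and the rule for naming genes (smallest p-values in each paternal comparison and in the interaction, largest called stage changes, highest and lowest levels, and a set of well-known members) were chosen with earlier results of these data known. Replicate numbers come from the labels and were checked for pairing. Alternatives are in the closing section. Sequences and coordinates are those of RefSeq GRCm38.p6, the assembly of mm10.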

Additional observations from a re-analysis of the deposited data

How the results depend on the processing

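Under 10 alternatives (pseudocount of 0.1, no filter, filter on a mean TPM of at least 1, detected genes as a covariate, median-centred embryos, cytosolic ribosomal protein genes left out of the total, array weights, 1 fit over all embryos, embryos under 7000 detected genes left out, and a replicate block), paternal heat called 0 members at both stages. Among all genes, the 1 fit over all embryos called 18 higher and 8 lower of 7322 at the 4-cell stage. In morulae it called 1 higher and 1 lower of 7897. Median-centring called 1 gene lower at the 4-cell stage. Members at an unadjusted p under 0.05 at the 4-cell stage (3 higher and 4 lower) were 1 higher with the covariate, 1 higher and 26 lower when median-centred, where their median was -0.43, and 7 lower without cytosolic ribosomal protein genes. Of all genes, 4.81% were higher with the covariate, 2.32% higher and 7.50% lower when median-centred, and 1.60% lower without cytosolic ribosomal protein genes. In morulae (4 higher and 8 lower) members were 0 higher and 1 lower with the covariate, 0 and 0 when median-centred, 4 lower without cytosolic ribosomal protein genes and 1 higher and 4 lower in 1 fit over all embryos. The matching shares of all genes were 1.43% and 3.23% with the covariate and 2.76% and 2.98% when median-centred. They were 1.67% lower without cytosolic ribosomal protein genes, and 2.75% and 1.39% in the 1 fit. The median of the interaction was 0.30 when median-centred, against 0.05. With the covariate, 17 members were lower in heat morulae than in heat 4-cell embryos, 9 of them at least 2-fold, and 19 in control embryos, 5 of them at least 2-fold. Of all genes, 35.0% were lower in heat embryos and 36.4% in control embryos under that fit. When median-centred, 14 members were higher in control morulae (25.7% of all genes), 5 at least 2-fold, and 2 were lower at least 2-fold. The shares of all genes at 2-fold under these settings are not given here, so the 2-fold counts are not read as particular to members. The covariate turned the stage difference of Mrpl3 (-2.16 in heat and -1.49 in control embryos), Mrpl37 (-1.33 and -0.97), Mrps30 in control embryos (-1.53), and in heat embryos of Mrpl45 (-0.71), Mrps2 (-0.53), Mrps27 (-0.37), Mrps18b (-0.0029) and Mrps18c (0.75). The cause was not tested. In every one of 11 settings 12 members were higher and 3 lower in heat embryos and 9 higher and 3 lower in control embryos. The share of all genes kept in this way is not given here. For the slope on detected genes, median-centring gave 9 members increasing and 57 decreasing (18.4% and 35.5% of all genes), and 4-cell embryos alone gave 12 decreasing (3.55% of all genes). Among the 16 members whose slope was followed one by one, median-centring turned Mrpl16 (-0.066).

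Same-numbered embryos did not go together (1 of 16 pairs over 0.1 at the 4-cell stage and 6 of 21 in morulae), so the numbers do not pair the embryos. With the replicate block, the unadjusted counts were 1 higher and 2 lower at the 4-cell stage (6.41% and 1.23% of all genes). In morulae they were 2 higher and 5 lower (4.41% and 1.79% of all genes). With this block, 27 members were higher and 6 lower in heat morulae than in heat 4-cell embryos (23.7% and 24.7% of all genes). In control embryos 21 were higher and 6 lower (25.3% and 20.0% of all genes). With detected genes 25 increased and 15 decreased (53.1% and 4.01% of all genes). Depth is unknown and limits low members most.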
